A study of Homo sapiens with 12 samples.

Results

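The mRNAs described here encode 8 proteins grouped under the cell division cycle. The proteins are the cyclins CCND2 and CCNG1, the RNA polymerase II kinase CDK12 and the phosphatases CDC25A and CDC25C. The others are the licensing inhibitor GMNN and the replication factors MCM7 and PCNA. The mRNAs were taken by gene name from a deposited table of RNA sites crosslinked to the translation initiation factor eIF3. They are 8 of the 479 genes and 30 of the 1477 sites of that table. A site, called a cluster in the table, is a stretch of overlapping reads assigned to 1 of 4 subunits of the factor. The cells were 293T, a transformed line derived from human embryonic kidney. All libraries shared 1 treatment: 4-thiouridine at 100 µM for 14 h, ultraviolet light at 0.15 J per square cm, and precipitation with an antibody against the subunit eIF3b. The 12 libraries form 4 groups of 3 replicates, labelled eIF3a, eIF3b, eIF3d and eIF3g, with no control library among them. Each cluster of a subunit has 1 value pooled over its replicates, so values come without any spread over replicates, no difference between subunits was tested, and intervals cover counting error only.

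The factor eIF3 is a complex of many subunits that helps the small ribosomal subunit load onto mRNA, and some of its subunits touch mRNA directly, often in the 5′ UTR ahead of the coding sequence. In this crosslinking method, RNA labelled with 4-thiouridine is joined to bound protein by ultraviolet light, and reverse transcription then turns the crosslinked T into a C. The cell cycle itself is driven by cyclins and cyclin-dependent kinases, which the CDC25 phosphatases switch on by removing inhibitory phosphates. Geminin (GMNN) keeps replication origins from being licensed again, the MCM proteins unwind DNA, and PCNA is the clamp that holds DNA polymerase on its template.

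The eIF3a list had 375 clusters with 15132 reads, the eIF3b list 298 with 19187, the eIF3d list 403 with 24150 and the eIF3g list 401 with 62405. Reads outside clusters are not in the table, so the depth of a library is unknown and read numbers of different subunits are set side by side without being read as amounts of bound RNA. The place of a gene among the genes of its own subunit is given as a percentile, with ties at their middle rank. The fewest reads of any cluster in the table was 8, so a gene that is not listed for a subunit may have had fewer reads, or reads that the unknown threshold did not pass. None of 16 marker genes of 293T or of other cell types had a cluster, so the table gives no check of the labelled line.

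Of the 8 genes, 5 were listed for all 4 subunits: CCND2, CCNG1, CDC25A, CDC25C and CDK12. Over all 479 genes this share was 33.6%. With only clusters of at least 20 reads, CCND2 and CCNG1 were left, 2 of the 8. Of the 322 genes that still had a cluster under this limit, 71 (22.0%) were listed for all 4 subunits. The 8 include GMNN, whose only cluster had 17 reads, so these shares have unlike bases. MCM7 and PCNA were listed for eIF3a, eIF3d and eIF3g, and GMNN for eIF3g. By subunit, 7 of the 8 genes were listed for eIF3a, where the share over all genes was 68.5%, and 5 for eIF3b (55.1% over all genes). The lists of eIF3d and eIF3g held 7 (74.3% over all genes) and all 8 (73.3%) of them. The eIF3b list was the shortest of the 4, and 55 of the 113 genes listed for exactly 3 subunits lacked eIF3b, as MCM7 and PCNA did. Of the 94 genes listed for a single subunit, 40 were in eIF3g, as GMNN was.

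Clusters in the 5′ UTR made up 27 of the 30, against 67.8% of all clusters in the table. The other 3 were 1 intronic site in MCM7, listed once for each of 3 subunits. The 30 clusters fell into 9 loci when same-strand clusters with an overlap of at least 1 nt were joined. CDC25A had 2 loci and each of the other 7 genes had 1, where 11.9% of all genes had 2 or more. Start and end were the same in every listing subunit at 5 of the 8 loci that more than 1 subunit shared, and at 41% of such loci over the whole table. The 5′ UTR clusters were 19 to 55 nt wide (end minus start), with a median of 23 nt, against 24 nt for the 5′ UTR clusters of the other genes.

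**Figure D1:**
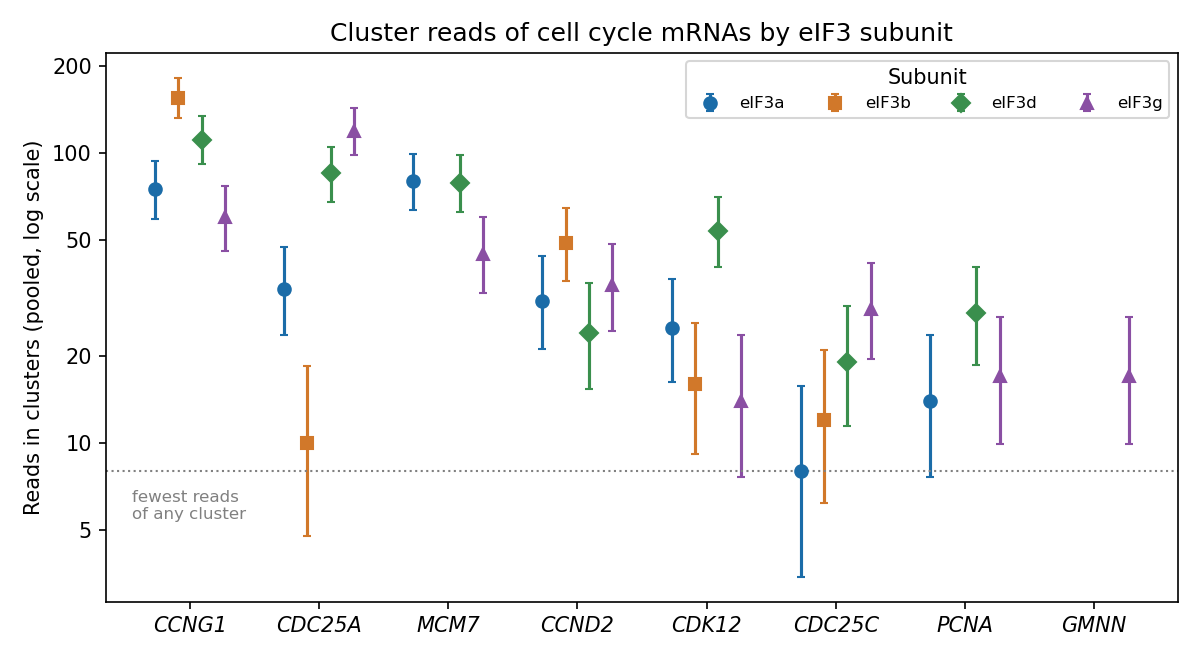
Reads summed over the clusters of each gene (y axis, log scale) for the 8 genes ordered by their total, with 1 point per subunit and bars for the exact Poisson 95% interval, which covers counting error only. A missing point means that the gene was not listed. CCNG1 has 60 or more reads in every subunit, CDC25A spans from 10 reads in eIF3b to 119 in eIF3g, and GMNN has 1 point, at 17 reads.

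Among the cyclins, CCNG1, which encodes a cyclin induced in the response to DNA damage, had the most reads of the 8 genes in eIF3b and eIF3d, while CDC25A led in eIF3g and MCM7 in eIF3a. Its single 5′ UTR cluster (hg19, chromosome 5, 162864712 to 162864734, plus strand, the same in all 4 subunits) held 155 reads in eIF3b, 111 in eIF3d, 75 in eIF3a and 60 in eIF3g. It stood high in every list, from percentile 82.9 in eIF3g to 93.4 in eIF3b. The exact Poisson 95% interval of the eIF3b value, 132 to 181 reads, lay above that of eIF3a (59.0 to 94.0) and that of eIF3g (45.8 to 77.2) and touched that of eIF3d (91.3 to 134). As a share of all cluster reads in its subunit, CCNG1 made up 0.808% in eIF3b (Wilson 95% interval 0.691 to 0.945), 0.460% in eIF3d (0.382 to 0.553), 0.496% in eIF3a (0.396 to 0.621) and 0.0962% in eIF3g (0.0747 to 0.124). The low eIF3g share goes with the large total of that list, and the gene was at percentile 82.9 there all the same.

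CCND2, a D-type cyclin that couples growth factor signals to entry into the cycle, had the widest site of the 8. Its 5′ UTR cluster began at 4383014 on chromosome 12, plus strand, in all 4 subunits (hg19). It reached 4383069 in eIF3a and eIF3b, a width of 55 nt, and 4383059 in eIF3d and eIF3g, a width of 45 nt. A width of 55 nt was at percentile 98.8 of all 5′ UTR clusters listed. The reads were 49 in eIF3b, 35 in eIF3g, 31 in eIF3a and 24 in eIF3d. The Poisson intervals of these reads overlapped for every pair except eIF3b (36.3 to 64.8) against eIF3d (15.4 to 35.7). By share of all cluster reads in the subunit, the values lay further apart. CCND2 made up 0.255% in eIF3b (Wilson interval 0.193 to 0.337) and 0.205% in eIF3a (0.144 to 0.291). Its share was 0.0994% in eIF3d (0.0668 to 0.148) and 0.0561% in eIF3g (0.0403 to 0.0780). The eIF3g interval lay below those of eIF3a and eIF3b. CCND2 was at percentile 77.8 in eIF3b, 70.4 in eIF3g, 60.2 in eIF3a and 52.1 in eIF3d. The limits of its read intervals spanned the middle of the list in eIF3a (percentiles 46.3 to 74.1) and in eIF3d (30.3 to 66.6).

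CDK12 encodes a kinase that pairs with cyclin K and phosphorylates RNA polymerase II, with known effects on the expression of DNA repair genes. Its 5′ UTR cluster (hg19, chromosome 17, 37617980 to 37618006, plus strand) had the same start and end in all 4 subunits. Its reads numbered 54 in eIF3d, 25 in eIF3a, 16 in eIF3b and 14 in eIF3g. In reads, the eIF3d value (Poisson interval 40.6 to 70.5) was above the intervals of the other subunits, the highest of which ended at 36.9 in eIF3a. By share of all cluster reads in the subunit, eIF3d and eIF3a were not separated. CDK12 made up 0.224% in eIF3d (Wilson interval 0.171 to 0.292) and 0.165% in eIF3a (0.112 to 0.244). The shares in eIF3b (0.0834%, 0.0513 to 0.135) and eIF3g (0.0224%, 0.0134 to 0.0377) were below the eIF3d interval. In rank the gene was at percentile 82.0 in eIF3d, 52.6 in eIF3a, 42.1 in eIF3b and 27.6 in eIF3g.

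CDC25A, a phosphatase that acts on cyclin-dependent kinases early in the cycle and at entry into mitosis, had 2 sites in its 5′ UTR on the minus strand of chromosome 3 (hg19). The upstream one, nearer the start of the transcript, began at position 48229876, and the downstream one ran from 48229697 to 48229718, 158 nt away. The upstream site ended at 48229895 in eIF3a and eIF3d and at 48229898 in eIF3g, and it was not listed for eIF3b. In eIF3g the upstream site held 98 reads and the downstream site 21. In eIF3a these were 9 and 25 reads, in eIF3d 11 and 74, and in eIF3b the downstream site held 10 reads.

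The stronger of the CDC25A sites was therefore the upstream one in eIF3g and the downstream one in eIF3a and eIF3d. The upstream site made up 82.4% of the reads of the gene in eIF3g (Wilson 95% interval 74.5 to 88.2), against 26.5% in eIF3a (14.6 to 43.1) and 12.9% in eIF3d (7.38 to 21.7). This share is taken within a subunit, so the total reads of a list do not enter it. The eIF3g interval did not overlap the other two, which overlapped each other. Without replicate values the difference was not tested. A change of the leading site was not rare among such genes: of 26 genes with 2 or more 5′ UTR loci that were listed together in at least 2 subunits, 11 had a different leading site in different subunits, CDC25A included. Summed over both sites, CDC25A had 119 reads in eIF3g, 85 in eIF3d, 34 in eIF3a and 10 in eIF3b, and its percentile ran from 10.0 in eIF3b to 90.5 in eIF3g, the widest range of the 8 genes.

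**Figure D2:**
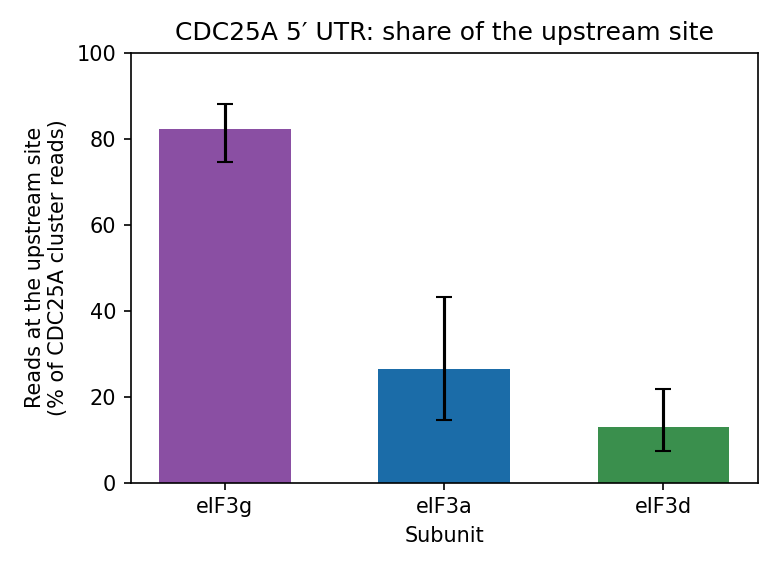
Share of the CDC25A cluster reads at the upstream of its 2 sites in the 5′ UTR (y axis, percent) in eIF3g, eIF3a and eIF3d, with bars for the Wilson 95% interval. The eIF3g share of 82.4% lies above those of eIF3a (26.5%) and eIF3d (12.9%), and eIF3b is left out because the upstream site was not listed there.

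CDC25C, the related phosphatase that acts on the kinase of mitosis, had a weaker site. Its 5′ UTR cluster (hg19, chromosome 5, 137667313 to 137667337, minus strand) was identical in position in all 4 subunits. The reads were 29 in eIF3g, 19 in eIF3d, 12 in eIF3b and 8 in eIF3a, the last being the fewest of any cluster. The intervals of eIF3g (19.4 to 41.7) and eIF3a (3.45 to 15.8) did not overlap, and those of the other pairs did. Its percentiles were 61.7 in eIF3g, 39.8 in eIF3d, 21.4 in eIF3b and 2.44 in eIF3a. Both CDC25 genes had more reads and a higher percentile in eIF3g than in any other subunit. The eIF3g and eIF3d read intervals overlapped for each. By share of all cluster reads in the subunit, the order was different. CDC25A made up 0.191% in eIF3g, 0.352% in eIF3d, 0.225% in eIF3a and 0.0521% in eIF3b. Its Wilson interval in eIF3g (0.159 to 0.228) lay below that of eIF3d (0.285 to 0.435). It overlapped that of eIF3a (0.161 to 0.314) and lay above that of eIF3b (0.0283 to 0.0959). CDC25C had its lowest share in eIF3g, 0.0465%, against 0.0787% in eIF3d, 0.0625% in eIF3b and 0.0529% in eIF3a. The Wilson intervals of the CDC25C shares all overlapped, so their order is within counting error. No preference for eIF3g is therefore drawn from the reads.

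GMNN had the least evidence of the 8, with 1 cluster of 17 reads in eIF3g (Poisson interval 9.90 to 27.2) in its 5′ UTR (hg19, chromosome 6, 24775350 to 24775373, plus strand), at percentile 36.9 of that list. PCNA had as many reads in eIF3g, 17, beside 14 in eIF3a and 28 in eIF3d. The PCNA site began at position 5100473 of chromosome 20, minus strand (hg19), and ended at 5100495 in eIF3a and eIF3g and at 5100499 in eIF3d. Its 3 Poisson intervals all overlapped, from 7.65 to 40.5 reads at their outer limits. PCNA stood at percentile 57.9 in eIF3d, 36.9 in eIF3g and 29.9 in eIF3a.

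**Figure D3:**
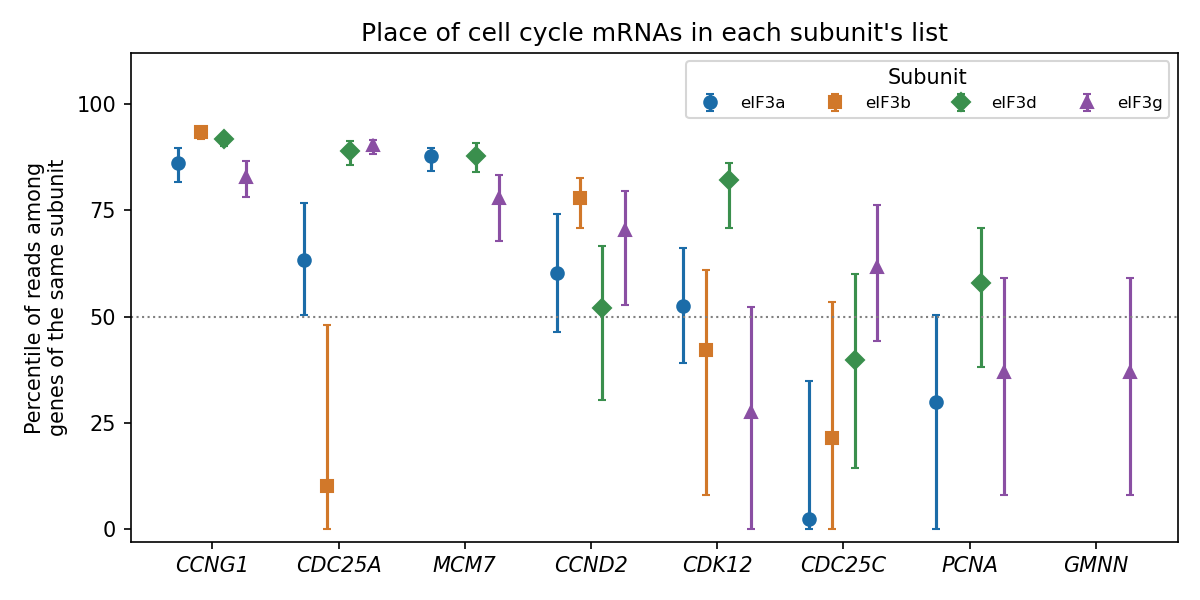
Percentile of each gene's reads among all genes listed for the same subunit (y axis, 50 marked), with bars for the percentiles of the limits of the Poisson interval of its reads. CCNG1 and MCM7 lie above percentile 75 wherever they were listed, CDC25A runs from 10.0 to 90.5, and the low-read genes have wide bars because many genes share nearly the same number of reads.

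MCM7 differed from the other 7 genes in where its site lay. Its cluster was annotated as intronic (hg19, chromosome 7, 99691195 to 99691215, minus strand) and had the same 20 nt span in the 3 subunits that listed it. It held 80 reads in eIF3a, 79 in eIF3d and 45 in eIF3g, at percentiles 87.8, 87.8 and 77.9. Among intronic clusters it was the fifth by reads of 30 in eIF3a, the fourth of 32 in eIF3d and number 12 of 37 in eIF3g. MCM7 is also known as the host of a group of microRNA genes, and 3 such genes lie inside it in the RefSeq table: MIR25, MIR93 and MIR106B. They are shown because the deposited annotation calls the site only intronic while the gene holds these small RNAs. The MCM7 cluster was 20 nt wide, which is within the range of the 5′ UTR clusters of the other genes described (19 to 55 nt, median 23 nt). Whether the reads came from a microRNA was not tested. The mature arm best known from each, from RefSeq (GRCh38.p14), is given 5′ to 3′ with the seed, bases 2 to 8, in capitals.
hsa-miR-25-3p: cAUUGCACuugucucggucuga
hsa-miR-93-5p: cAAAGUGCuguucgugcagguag
hsa-miR-106b-5p: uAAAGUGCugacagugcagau
The arms from MIR93 and MIR106B share the seed AAAGUGC, and that of MIR25 has AUUGCAC. The 3 sequences are 22, 23 and 21 nt long and hold 8, 6 and 5 uridines, the bases that 4-thiouridine can replace. The reference is of another build than the clusters and positions were not converted between builds. Whether the MCM7 cluster overlaps one of these genes was therefore not determined here. Reads from the MCM7 transcript and from a microRNA were not told apart, so the MCM7 values are not known to be those of its mRNA.

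Conversions per read, the number of T-to-C changes over the reads of a cluster, also set MCM7 apart. Its cluster had 2 conversions in 79 reads in eIF3d, 9 in 80 in eIF3a and 9 in 45 in eIF3g, or 0.0253, 0.113 and 0.20 per read. These were the lowest values among the clusters of the 8 genes in each of the 3 subunits. Within whole lists they were at percentiles 5.58, 3.60 and 8.60. The other intronic clusters had a median of 0.131 conversions per read in eIF3d, 1.36 in eIF3a and 1.66 in eIF3g, and MCM7 was the lowest of 30 intronic clusters in eIF3a, the fifth from the bottom of 32 in eIF3d and the fifth of 37 in eIF3g. The cause of the low values was not tested.

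The 5′ UTR clusters of the other 7 genes carried fewer conversions per read in eIF3d than in the other subunits, where there was about 1. Their medians were 0.135 in eIF3d (7 clusters), 1.0 in eIF3a (7 clusters), 1.08 in eIF3b (5 clusters) and 1.06 in eIF3g (8 clusters). The 5′ UTR clusters of all other genes had medians of 0.20, 1.0, 1.06 and 1.03. In CCNG1 the counts were 15 conversions in 111 reads in eIF3d, against 158 in 155 in eIF3b, 66 in 60 in eIF3g and 67 in 75 in eIF3a. The value was lowest in eIF3d at all 5 loci of these genes that were listed for all 4 subunits, and at 97.7% of such loci in the whole table. Counting the loci listed for eIF3d, eIF3a and eIF3g, with the intronic MCM7 locus included, it was lowest in eIF3d at 8 of 8, against 98.3% over the table. The pattern is thus that of the table as a whole and not particular to the cell cycle genes.

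Within eIF3d the genes did not fall equally far. CCND2 had 11 conversions in 24 reads and CDC25C 9 in 19, or 0.458 and 0.474 per read, at percentiles 92.9 and 94.7 of the eIF3d list. CDK12 (7 in 54), PCNA (4 in 28) and both CDC25A sites (8 in 74 and 1 in 11) had between 0.0909 and 0.143. In eIF3g, CDK12 had 9 conversions in only 14 reads, 0.643 per read, the lowest of the 8 genes there after MCM7. Its value was 0.813 in eIF3b. In eIF3a it was 0.92, above those of CCND2 (0.807) and CCNG1 (0.893).

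**Figure D4:**
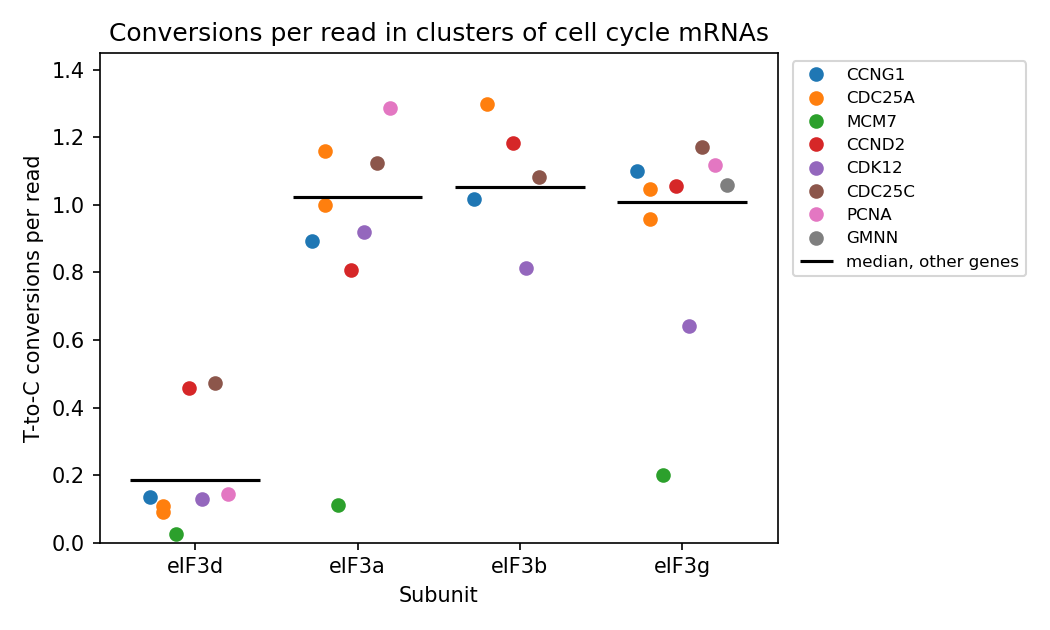
T-to-C conversions per read of each cluster (points, coloured by gene) in eIF3d, eIF3a, eIF3b and eIF3g, with a black line for the median over the clusters of all other genes. Points in eIF3d lie below 0.5, most points in the other subunits lie between 0.8 and 1.3, and the MCM7 points, at 0.0253, 0.113 and 0.20 in eIF3d, eIF3a and eIF3g, lie at the bottom of each column.

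Together the 8 genes held 400 reads in eIF3d, 336 in eIF3g, 267 in eIF3a and 242 in eIF3b. This was 1.66% of the cluster reads in eIF3d (Wilson interval 1.503 to 1.83), 0.538% in eIF3g (0.484 to 0.599), 1.76% in eIF3a (1.57 to 1.99) and 1.26% in eIF3b (1.11 to 1.43). These shares depended on the denominator: of 5′ UTR reads alone, which leaves out MCM7, they were 2.67%, 2.28%, 1.90% and 2.88% in the same order, and without the 5 strongest clusters the eIF3g share was 1.31%. The median percentile of the listed genes was 82.0 in eIF3d, 66.0 in eIF3g, 60.2 in eIF3a and 42.1 in eIF3b, where 50 is the middle of a list. The median reads per gene were 54 for the cell cycle genes and 23 for all genes in eIF3d, 32 and 22 in eIF3g, 31 and 23 in eIF3a, and 16 and 19 in eIF3b. These medians rest on 5 to 8 genes each and no test was made of them.

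The profile of each gene over the 4 subunits was also compared with that of the other genes listed for all 4, by the Euclidean distance between their log2 reads. CCNG1 lay nearest to RPS15A, a protein of the small ribosomal subunit, which had 136 reads in eIF3d, 123 in eIF3b, 103 in eIF3a and 70 in eIF3g, at a distance of 0.68. ZNF503 followed at 0.91. CDC25A lay nearest to ARF4, a small GTPase of membrane traffic with 129 reads in eIF3g, 55 in eIF3d, 43 in eIF3a and 8 in eIF3b (distance 0.79), and then to ATP1B3 at 1.17. CCND2 lay nearest to NR2C1 (0.60) and AKIRIN2 (0.82), CDC25C to PPP1R11 (0.68) and ITM2B (0.85), and CDK12 to C9orf40 (0.52) and TIMM8A (0.65). Each distance is a description over 4 pooled values.

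A further 78 genes of the cell cycle, among them other cyclins, kinases, checkpoint proteins, licensing factors and replication factors, were looked up in the table, and 3 of them (3.85%) had a cluster. Over protein-coding genes of the RefSeq table the share was 2.21%, or 444 of 20056. The 78 leave out the 8 genes above, which were chosen as listed, so neither share is that of cell cycle genes at large. All 3 had their cluster in the 5′ UTR. PKMYT1, a kinase that opposes the CDC25 phosphatases, had 34 reads and 34 conversions in eIF3a. CKS2, a small subunit that binds cyclin-dependent kinases, had 27 reads in eIF3a and 26 in eIF3d, and CCNI, a cyclin, had 11 reads in eIF3g. None of these 3 was listed for more than 2 subunits, while 7 of the 8 genes above were. Over all 479 genes, 161 were listed for all 4 subunits and 113 for exactly 3. Since the 8 were chosen with earlier results of these data known, nothing is drawn from this contrast.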

How the data were processed

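Per the labels' protocols, RNA crosslinked to eIF3 was recovered with an anti-eIF3b antibody, trimmed with RNase T1 and sequenced as small RNA libraries. The authors deposited 1 table with whole-number read counts per cluster and subunit, not normalized, and the number of T-to-C conversions, per the file headers. The submitters' processing notes name hg19, Bowtie, cutadapt and bedtools. How clusters were called and replicates pooled was not stated in these sources. Nor was it stated if coordinates start at 0 or 1, so they are printed as deposited. The table has no replicate column, so no count model was fitted and depth per library is unknown. Names were compared without regard to case, which left 479 genes of 480 names. Reads were given with exact Poisson and shares with Wilson intervals at 95%, using Python 3.11.15 and scipy 1.17.1. Overlap joining and intervals were tested on simulated data. The genes named are the 8 members, the 2 nearest profiles of each member listed for all 4 subunits, and listed genes of the 78-gene cell cycle list. The members and lists were chosen with earlier results of these data known. Alternatives changed the clusters used, the overlap rule, the reads per gene, the denominator and the conversion summary.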

Additional observations from a re-analysis of the deposited data

Results flagged for a closer look

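The CDC25A sites stood out because the leading site ran the opposite way in 1 subunit. The upstream site held 82.4% of the reads of the gene in eIF3g, against 26.5% in eIF3a and 12.9% in eIF3d. The difference was not tested, since each share is 1 pooled value.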

How the results depend on the processing

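No paired analysis was possible because the table carries no replicate number, and for the same reason leaving out each replicate was not run. With only clusters that reached their subunit's median reads, and likewise with clusters of at least 20 reads, 2 genes were listed for eIF3b in place of 5, 5 for eIF3g in place of 8, and 2 for all 4 subunits in place of 5. Among genes that still had a cluster, the last share was 22.1% (68 of 307) and 22.0% (71 of 322) under these limits. The 8 genes include GMNN, which had no cluster left, so the bases are unlike. Without the 5 strongest clusters in the denominator, the 8 genes made up 2.68% of the reads in eIF3d, 1.31% in eIF3g, 2.14% in eIF3a and 1.91% in eIF3b. There eIF3g was still the lowest. Of 5′ UTR reads, which also leaves MCM7 out of the genes counted, they made up 2.67% in eIF3d, 2.28% in eIF3g, 1.90% in eIF3a and 2.88% in eIF3b, and eIF3g was not the lowest. The other 34 alternatives of the counts, medians and shares stayed within 1.5 times the count or within the counting interval, those added after seeing the data included (the CDC25A share by conversions, medians without MCM7, and percentiles of the 5 genes listed for all 4 subunits). Of 51 alternative percentiles of single genes, 45 stayed within the counting interval. Few reads limit the ranks: the interval of the 17 GMNN reads spans percentiles 7.98 to 59.0.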
